A study of Homo sapiens with 24 samples.

Results

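The mRNAs of 10 human selenoprotein genes were followed in HepG2 cells: GPX1, GPX4, MSRB1, SELENOP, SELENOF, SELENOK, SELENOS, SELENOT, DIO1 and SELENOW. They were taken by name from 58676 genes counted in every library, and the choice was made with earlier results of these data known. All 10 passed the filter of at least 1 CPM (counts-per-million of gene reads) in at least 2 of the 24 libraries, which 13136 genes passed in all. HepG2 is an established human liver tumour cell line. Its cells carried either a control siRNA (siControl) or an siRNA that lowers 1 of 3 related RNA-binding proteins, IGF2BP1 (siIGF2BP1), IGF2BP2 (siIGF2BP2) or IGF2BP3 (siIGF2BP3), and the study asked how these proteins change mRNA lifetime. From 48 h after reseeding, cells of every condition received actinomycin D, which stops transcription, at 5 µg/ml, and polyadenylated RNA was sequenced at 0, 3 and 6 h, with 2 libraries in each of the 12 groups.

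The libraries held 31843248 to 74252042 reads in genes and 50889 to 119088 reads of ERCC spike-in RNA, a set of synthetic transcripts added per µg of purified total RNA. A value set on the ERCC scale is therefore an amount per µg of total RNA and not per cell, and in bulk RNA less of an mRNA per cell and fewer cells holding it cannot be told apart. IGF2BP1 stood at 130.26 and 134.37 CPM in the siIGF2BP1 libraries at 0 h and at 620 and 632 in siControl, so 21.1% was left. IGF2BP2 was left at 26.2% and IGF2BP3 at 35.5% in their own knockdowns. The 9 hepatocyte markers checked, ALB and APOB among them, were above 1 CPM in every library, with a sum of 66298 to 98239. Of 8 markers of blood, vessel and connective tissue cells, 5 were under 1 CPM in every library, PTPRC was at 0 in 23 of 24, and their sum was 30.3 to 44.1, which was mostly ACTA2.

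Selenoproteins carry selenocysteine, an amino acid that the ribosome inserts at a UGA codon which would otherwise end translation. A hairpin in the 3′ untranslated region, the SECIS element, recruits the protein SECISBP2 and the elongation factor EEFSEC with a dedicated transfer RNA. When selenium is short, the UGA of some of these mRNAs is read as a premature stop, and the mRNA can then be destroyed by nonsense-mediated decay if an exon junction lies far enough downstream. The liver makes most of the selenoproteins of the plasma.

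The codons that define the group are shown with up to 12 bases on each side, from the GENCODE release 44 transcript of each gene on hg38, because their place in the transcript is set beside mRNA loss further on. The letters run 5′ to 3′ as DNA, and capitals mark the codon read as selenocysteine.
GPX1, residue 49, chr3:49358132-49358134, minus strand, exon 1 of 2: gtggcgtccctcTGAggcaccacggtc
GPX4, residue 73, chr19:1105403-1105405, plus strand, exon 3 of 7: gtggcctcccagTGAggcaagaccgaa
MSRB1, residue 95, chr16:1940812-1940814, minus strand, exon 3 of 4: cagtcccgattcTGAatattcagcagc
SELENOP, residue 59, chr5:42808177-42808179, minus strand, exon 2 of 5: cttcaagccagcTGAtacctgtgcata
SELENOP, residue 378, chr5:42800732-42800734, minus strand: aaaaagtgagaaTGAccttcaaactaa
SELENOF, residue 96, chr1:86880690-86880692, minus strand, exon 3 of 5: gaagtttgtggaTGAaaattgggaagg
SELENOK, residue 92, chr3:53885831-53885833, minus strand, exon 4 of 5: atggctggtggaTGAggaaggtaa
SELENOS, residue 188, chr15:101272777-101272779, minus strand, exon 6 of 6: tcatctggcggaTGAggctaa
SELENOT, residue 49, chr3:150622392-150622394, plus strand, exon 2 of 6: atttgtgtttccTGAggttataggcgg
DIO1, residue 126, chr1:53904704-53904706, plus strand, exon 2 of 4: ggaagttgtaccTGAccttcatttatg
SELENOW, residue 13, chr19:47780732-47780734, plus strand, exon 2 of 6: tattgtggcgctTGAggctacaagtcc

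SELENOP holds 10 such codons and each of the other 9 genes holds 1. In SELENOK the codon is followed by 2 residues and in SELENOS by 1, so those sequences end at the stop codon. The base after TGA was C at 7, G at 7, A at 3 and T at 2 of the 19 codons. Of these 19, 10 are from SELENOP, among them most of those followed by C.

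In RPKM, the CPM of a gene divided by its exon length in kilobases, the mRNAs spanned a wide range in siControl at 0 h. GPX4, which reduces lipid hydroperoxides in membranes, was highest at 317 ± 0.982 (SD, n = 2). SELENOP, the secreted selenium carrier of the plasma, followed at 160 ± 0.488, then GPX1, the glutathione peroxidase that removes hydrogen peroxide, at 63.5 ± 6.86. These 3 did not overlap each other or any gene below them.

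SELENOF, an endoplasmic reticulum protein that binds the folding sensor UGGT1, stood at 38.4 ± 1.16 RPKM and MSRB1, which repairs oxidized methionine, at 26.2 ± 1.40. DIO1, the deiodinase that activates thyroid hormone, stood at 18.6 ± 0.924. SELENOK, SELENOS and SELENOT, all proteins of the endoplasmic reticulum membrane, stood at 16.2 ± 0.150, 14.3 ± 0.388 and 12.6 ± 0.579, and no neighbours in this order overlapped. SELENOW, a small cytosolic protein with a thioredoxin fold, was lowest at 2.47 ± 0.370.

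The lower part of this order depended on the length used. The merged exons of SELENOW span 5.156 kb against 0.758 kb for its canonical transcript, and on the canonical length it stood at 16.8 ± 2.51 RPKM with SELENOT at 15.1 ± 0.692, and the libraries of the 2 genes overlapped. DIO1 at 22.7 ± 1.13 and SELENOK at 22.3 ± 0.205 also overlapped on this length. SELENOS rose from the eighth place to the fifth, at 44.2 ± 1.198, and GPX4, SELENOP, GPX1 and SELENOF kept the first 4 places. Together the 10 mRNAs took 0.188% and 0.189% of the gene reads of the 2 siControl libraries at 0 h, and 0.167% of both siIGF2BP2 libraries. Without SELENOP the other 9 took 0.0997% and 0.101% in siControl and 0.102% in both siIGF2BP2 libraries, so the lower sum was that of SELENOP.

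At 0 h, before transcription was stopped, the clearest differences from siControl were lower SELENOP and SELENOT in siIGF2BP2 and higher DIO1 in siIGF2BP1. Levels here are CPM after TMM scaling, which sets each library against the bulk of its genes, and a call is an adjusted p under 0.05 in edgeR's quasi-likelihood test over 13136 genes. Of the 10 genes, 4 were called in siIGF2BP1, all higher, against 15.9% of all genes tested (9.43% higher and 6.5% lower). In siIGF2BP2 6 were called, 5 lower and 1 higher, against 12.1% (5.47% lower and 6.65% higher), and in siIGF2BP3 3 were called, all lower, against 9.39% (4.47% lower and 4.93% higher). All 3 comparisons share the siControl libraries. Leaving out 1 library at a time gave 1 to 3, 2 to 5 and 0 to 1 calls, with the lowest counts without siControl replicate 1 or either siIGF2BP1 replicate (1 each), without siIGF2BP2 replicate 1 (2) and without siIGF2BP3 replicate 1 (0).

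**Figure D1:**
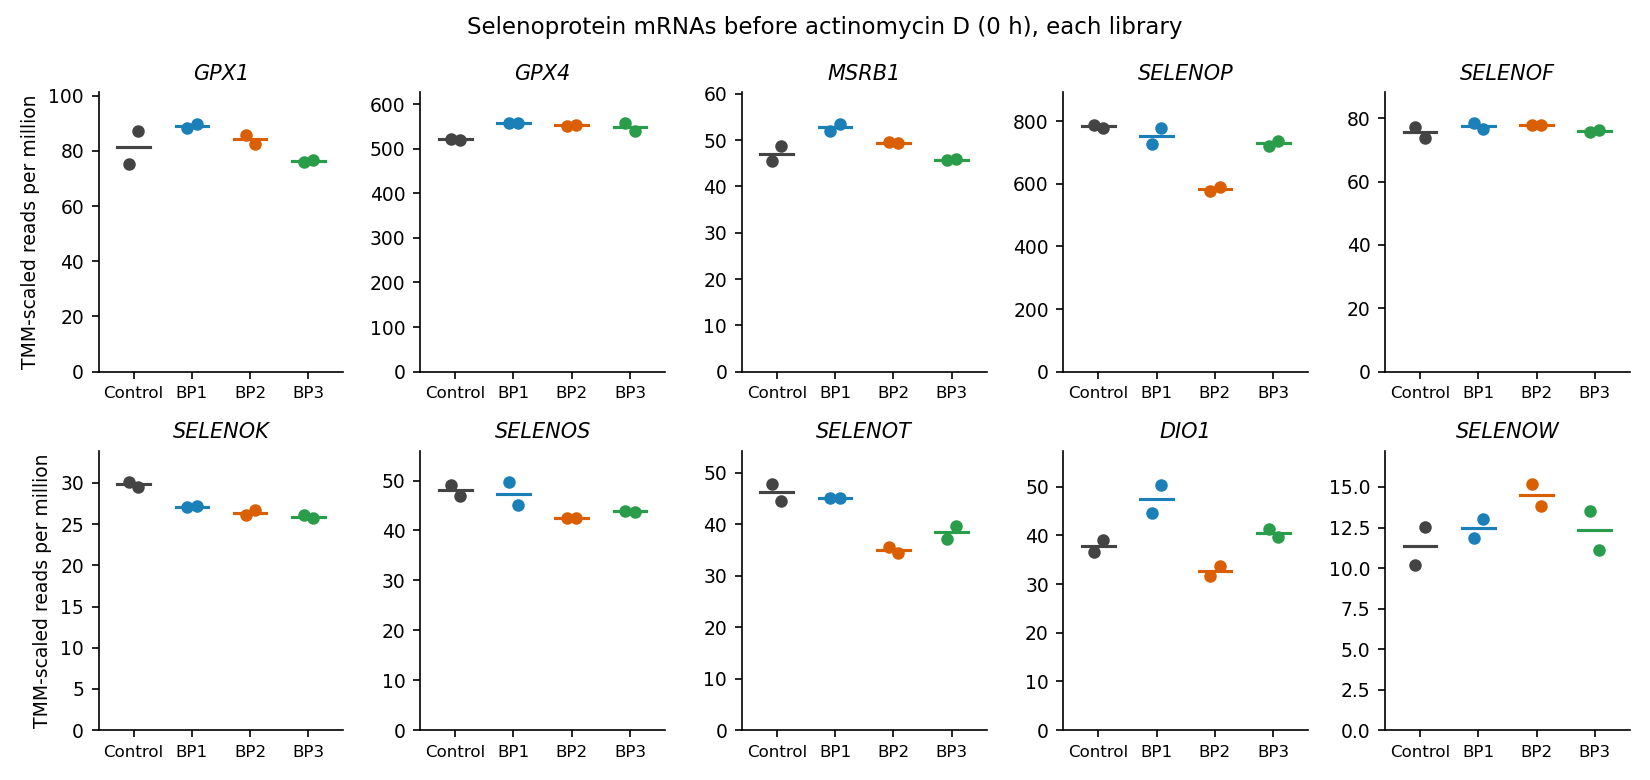
TMM-scaled CPM of each selenoprotein mRNA at 0 h (vertical axis from 0, a separate scale for each gene) in siControl (Control), siIGF2BP1 (BP1), siIGF2BP2 (BP2) and siIGF2BP3 (BP3). Points are libraries and lines their means; SELENOP lies at 578 and 590.5 in siIGF2BP2 against 788 and 780.2 in siControl.

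The SELENOP gene lies at chr5:42799880-42887392 on the minus strand. Its mRNA stood at 788 and 780.2 CPM in siControl, 727 and 779.6 in siIGF2BP1, 578 and 590.5 in siIGF2BP2 and 722 and 738 in siIGF2BP3. Both siIGF2BP2 libraries were below every other library at 0 h. The log2 change was -0.42 ± 0.03 (SE, adjusted p = 8.65e-13) in siIGF2BP2 and -0.10 ± 0.03 (adjusted p = 0.0347) in siIGF2BP3, and the second call was lost when any of the 4 libraries was left out (adjusted p of 0.0816 to 0.251). SELENOP overlaps CCDC152 on the opposite strand, and whether the authors counted by strand is not given in the sources used here, so reads of the 2 genes may not be separated.

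The endoplasmic reticulum genes were lower or not called. SELENOT (chr3:150602875-150630436, plus strand) stood at 47.8 and 44.6 in siControl, 45.1 in both siIGF2BP1 libraries, 35.7 and 34.5 in siIGF2BP2 and 37.1 and 39.7 in siIGF2BP3. All 4 libraries of siIGF2BP2 and siIGF2BP3 were below all siControl and siIGF2BP1 libraries. The log2 change was -0.40 ± 0.06 (adjusted p = 4.00e-06) in siIGF2BP2 and -0.27 ± 0.06 (adjusted p = 0.00184) in siIGF2BP3. The call in siIGF2BP3 was lost without replicate 1 of siControl or of siIGF2BP3 (highest adjusted p = 0.0767). SELENOT overlaps SERP1, an endoplasmic reticulum stress gene, on the opposite strand, with the same limit as for SELENOP.

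SELENOK (chr3:53884417-53891885, minus strand), which works with the palmitoyl transferase ZDHHC6, stood at 30.1 and 29.5 in siControl and between 25.7 and 27.2 in all 6 knockdown libraries. All 6 were below both siControl libraries. It was called in siIGF2BP2 (-0.18 ± 0.06, adjusted p = 0.0325) and in siIGF2BP3 (-0.20 ± 0.06, adjusted p = 0.0173). Both calls were lost when any library was left out, with adjusted p of 0.0637 to 0.221.

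SELENOS (chr15:101270817-101277500, minus strand), which tethers the segregase VCP to the membrane for degradation of misfolded proteins, stood at 49.1 and 47.0 in siControl, 42.4 and 42.5 in siIGF2BP2 and 43.96 and 43.7 in siIGF2BP3. It was called in siIGF2BP2 (-0.18 ± 0.05, adjusted p = 0.0214), and the call was lost without replicate 1 of siControl or either replicate of siIGF2BP2 (highest adjusted p = 0.214). SELENOF (chr1:86862445-86914424, minus strand) stood at 73.7 to 78.6 in all 8 libraries at 0 h, and its log2 changes of 0.04, 0.05 and 0.01 passed no test.

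Among the redox enzymes the changes were small. GPX4 (chr19:1103982-1106791, plus strand) stood at 521 in both siControl libraries and at 541 to 558 in the 6 knockdown libraries. It was called in siIGF2BP1 (0.10 ± 0.03, adjusted p = 0.0186), and the call was lost when any library was left out (adjusted p of 0.0863 to 0.1002). MSRB1 (chr16:1938229-1943199, minus strand) stood at 45.5 and 48.8 in siControl and at 52.0 and 53.5 in siIGF2BP1, a change of 0.16 ± 0.05 (adjusted p = 0.0255) that was lost without replicate 1 of siControl or either replicate of siIGF2BP1 (highest adjusted p = 0.315).

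GPX1 (chr3:49357174-49358605, minus strand) stood at 75.2 and 87.2 in siControl, the widest spread between siControl replicates among the redox enzymes. Its siIGF2BP1 libraries, at 88.3 and 89.7, lay just above both, with a change of 0.13 ± 0.05 (adjusted p = 0.0496). Without replicate 1 of siControl the change was 0.03 (adjusted p = 0.828), and the call was also lost without either siIGF2BP1 replicate.

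DIO1 (chr1:53891239-53911086, plus strand), which is typical of liver, kidney and thyroid, was the only gene of the 10 called in opposite directions at 0 h. It stood at 36.6 and 39.0 in siControl, 44.6 and 50.4 in siIGF2BP1, 31.7 and 33.8 in siIGF2BP2 and 41.3 and 39.7 in siIGF2BP3. The 2 siIGF2BP1 libraries were above and the 2 siIGF2BP2 libraries below all others. The change was 0.32 ± 0.06 (adjusted p = 9.21e-05) in siIGF2BP1 and -0.21 ± 0.06 (adjusted p = 0.0143) in siIGF2BP2, and the second call was lost without siControl replicate 2 or siIGF2BP2 replicate 1 (highest adjusted p = 0.238).

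SELENOW (chr19:47778677-47784686, plus strand) stood at 10.2 and 12.6 in siControl, 11.9 and 13.0 in siIGF2BP1, 15.2 and 13.8 in siIGF2BP2 and 13.5 and 11.1 in siIGF2BP3. Only the siIGF2BP2 libraries did not overlap siControl. The change there was 0.34 ± 0.09 (adjusted p = 0.0117), the only called rise of the 10 in that knockdown at 0 h. The call was lost without siControl replicate 1 or siIGF2BP2 replicate 1 (highest adjusted p = 0.334).

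Set against each other at 0 h, siIGF2BP1 and siIGF2BP2 differed in 4 of the 10 genes (18.7% of all genes tested), siIGF2BP1 and siIGF2BP3 in 4 (14.3%) and siIGF2BP2 and siIGF2BP3 in 3 (9.19%). DIO1 was the only gene that differed in all 3 pairs.

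Averaged over 0, 3 and 6 h, with 6 libraries against 6, more of the genes were called. Each transfected plate was split to give the 3 times, so these 6 libraries share transfections and are not 6 separate ones, and the p-values of this average may be too small. In siIGF2BP1 the test called 5, of which 2 were higher and 3 lower, against 39.7% of all genes tested (21.2% higher and 18.5% lower). In siIGF2BP2 it called 7, with 2 above and 5 below siControl, against 33.8% (17.1% and 16.7%). For siIGF2BP3 the count was 6, DIO1 higher and 5 lower, against 32.3% (16.2% and 16%). The median change of the 10 genes was -0.01, -0.11 and -0.08 on the log2 scale, and that of all genes tested was 0.00, 0.01 and 0.00. Among the 9 hepatocyte markers 6 (4 higher, 2 lower), 7 (2 higher, 5 lower) and 7 (3 higher, 4 lower) were called in siIGF2BP1, siIGF2BP2 and siIGF2BP3, with medians of 0.04, -0.05 and 0.00, and their part in the result was not tested.

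The average was also taken first, as 1 mean per condition and replicate number, and tested with limma on 8 values, an alternative chosen after seeing the data. It called 5, 6 and 5 of the 10 in siIGF2BP1, siIGF2BP2 and siIGF2BP3. The share of all genes that limma called is not given here, so these counts cannot be set against it. The calls lost were GPX4 in siIGF2BP2 (adjusted p = 0.168) and DIO1 in siIGF2BP3 (adjusted p = 0.0651). It takes libraries of 1 number as 1 transfection, which the labels do not state.

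**Figure D2:**
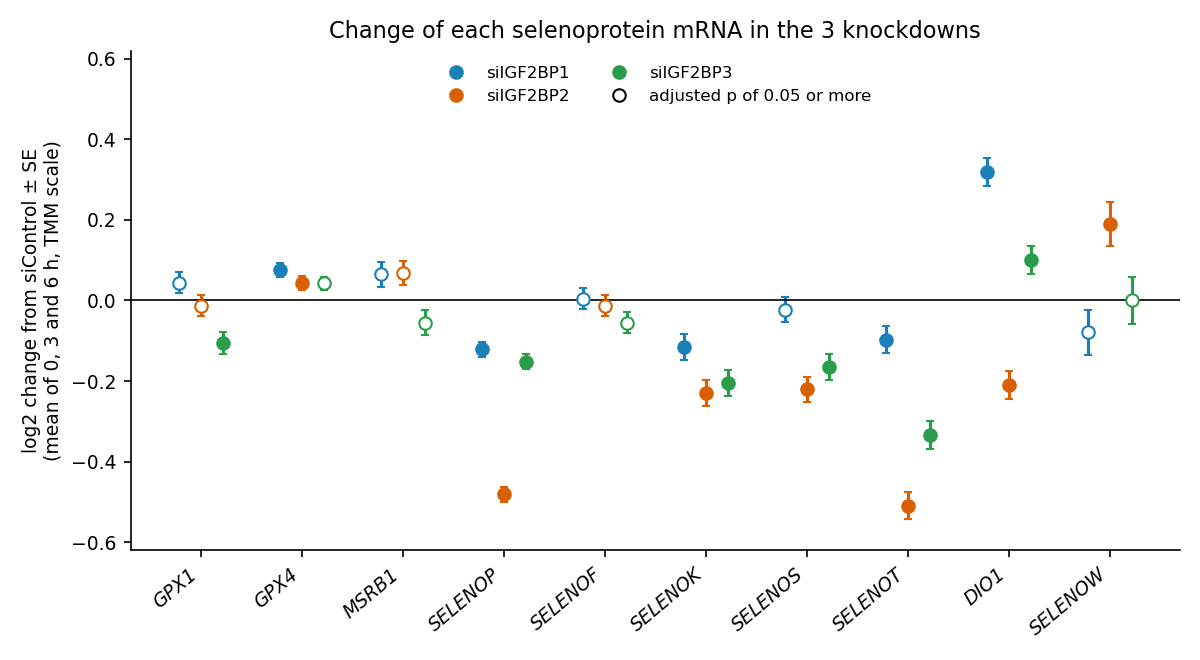
Log2 change from siControl of each selenoprotein mRNA (horizontal axis), averaged over 3 time points on the TMM scale, with bars of 1 SE; filled points have an adjusted p under 0.05. SELENOP and SELENOT in siIGF2BP2 lie lowest at -0.48 and -0.51, and DIO1 in siIGF2BP1 highest at 0.32.

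SELENOT fell in all 3 knockdowns on this average, by 0.10, 0.51 and 0.33 on the log2 scale in siIGF2BP1, siIGF2BP2 and siIGF2BP3 (SE of 0.03 in each, adjusted p = 0.0197, 3.75e-15 and 5.52e-10). SELENOP fell by 0.12, 0.48 and 0.15 (SE of 0.02 in each, adjusted p = 1.36e-06, 2.05e-22 and 2.57e-08), and its libraries were below both siControl libraries at all 3 times in every knockdown. SELENOK fell by 0.12, 0.23 and 0.21 (SE of 0.03 in each, adjusted p = 0.00429, 3.72e-07 and 4.66e-06). These 3 genes were lower in every knockdown on the TMM scale (on the ERCC scale, given further on, SELENOP in siIGF2BP3 was not), and in each the change in siIGF2BP1 was the smallest, although for SELENOP it did not pass the test against that in siIGF2BP3 (difference of 0.03, adjusted p = 0.197). The call of SELENOT in siIGF2BP1 was lost in 5 of 12 fits that left out 1 library: without siControl 0 h replicate 1, 3 h replicate 2 or 6 h replicate 2, or siIGF2BP1 3 h replicate 1 or 6 h replicate 2 (highest adjusted p = 0.114).

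SELENOS fell by 0.22 in siIGF2BP2 and by 0.17 in siIGF2BP3 (SE of 0.03, adjusted p = 3.43e-07 and 6.53e-05), and its change in siIGF2BP1 was -0.02 ± 0.03. DIO1 rose by 0.32 ± 0.03 in siIGF2BP1 (adjusted p = 6.95e-10), fell by 0.21 ± 0.03 in siIGF2BP2 (adjusted p = 5.68e-06) and rose by 0.10 ± 0.03 in siIGF2BP3 (adjusted p = 0.0227). The last of these was lost in 5 of 12 fits that left out 1 library: without siControl 0 h replicate 1, 3 h replicate 2 or 6 h replicate 1, or siIGF2BP3 0 h replicate 1 or 6 h replicate 2 (highest adjusted p = 0.0829). DIO1 was above siControl at all 3 times in siIGF2BP1 and siIGF2BP3 and below it at all 3 in siIGF2BP2.

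SELENOW rose by 0.19 ± 0.05 in siIGF2BP2 (adjusted p = 0.00581) and GPX4 by 0.08 ± 0.02 in siIGF2BP1 (adjusted p = 0.000482). GPX4 in siIGF2BP2, at 0.04 ± 0.02 (adjusted p = 0.0483), lost its call in 9 of 12 fits that left out 1 library, those without either 0 h replicate of either condition, replicate 2 at 3 h or 6 h of siControl or siIGF2BP2, or siIGF2BP2 6 h replicate 1 (highest adjusted p = 0.221). GPX1 fell by 0.11 ± 0.03 in siIGF2BP3 (adjusted p = 0.00194). MSRB1 and SELENOF passed no test here, with changes from -0.06 to 0.07.

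The scale bears on these counts. With libraries scaled by ERCC reads in place of TMM, the median change of all genes over 3 time points was 0.06, 0.15 and 0.18 in siIGF2BP1, siIGF2BP2 and siIGF2BP3. The split of the 10 genes turned with it. In siIGF2BP2 7 were still called, now 5 higher (SELENOW, SELENOF, GPX1, GPX4 and MSRB1) and 2 lower (SELENOP and SELENOT), against 44.2% of all genes tested higher and 3.86% lower. In siIGF2BP3 6 were called, now 5 higher (SELENOW, SELENOF, GPX4, MSRB1 and DIO1) and SELENOT lower, against 52.9% and 1.96%. In siIGF2BP1 2 were called, DIO1 and GPX4, both higher, against 23.4% and 7.7%.

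Among the calls gained on the ERCC scale were MSRB1 in siIGF2BP2 (0.21 ± 0.05, adjusted p = 0.000543) and GPX4 in siIGF2BP3 (0.22 ± 0.05, adjusted p = 1.31e-05). SELENOP and SELENOT in siIGF2BP2 stayed lower, at -0.34 and -0.37 (adjusted p = 6.24e-12 and 2.43e-10), and so did SELENOT in siIGF2BP3, at -0.15 (adjusted p = 0.0110). The calls of SELENOP in siIGF2BP1, of SELENOK in all 3 knockdowns, of SELENOS in siIGF2BP2, of SELENOT in siIGF2BP1 and of DIO1 in siIGF2BP2 were lost, and SELENOP, SELENOS and GPX1 in siIGF2BP3 turned to 0.027, 0.012 and 0.075. The falls lost on this scale were called on the TMM scale, which is relative to other mRNAs. The SE was also larger on the ERCC scale, as for SELENOK in siIGF2BP2 (-0.09 ± 0.06 against -0.23 ± 0.03 with TMM). The part of each in the lost calls was not tested. At 0 h the ERCC scale left 1, 3 and 0 of the 10 called, DIO1 in siIGF2BP1 and SELENOP, SELENOT and SELENOW in siIGF2BP2. Calls were also fewer over all 13136 genes tested. They were 253 higher and 396 lower in siIGF2BP1, 563 and 169 in siIGF2BP2, and 388 and 83 in siIGF2BP3. With TMM they were 1239 and 854, 874 and 719, and 647 and 587.

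After actinomycin D, the selenoprotein mRNAs were lost slowly or passed no test of loss. Here values are on the ERCC scale, and loss is the fitted log2 slope times 6 h. In siControl all 10 slopes were above the median of all genes tested, -0.88, and their own median was -0.22. Of the 10, 5 fell in siControl (MSRB1, SELENOS, SELENOT, DIO1 and SELENOK), against 80.3% of all genes tested, and none rose, against 0.251%. The 9 hepatocyte markers were also lost slowly, with a median slope of 0.01 and 2 of 9 falling. In each knockdown 3 fell (MSRB1, SELENOS and SELENOT), against 69.1%, 71.3% and 67.2% in siIGF2BP1, siIGF2BP2 and siIGF2BP3, and GPX4 rose, against 2.69%, 2.44% and 2.91%.

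**Figure D3:**
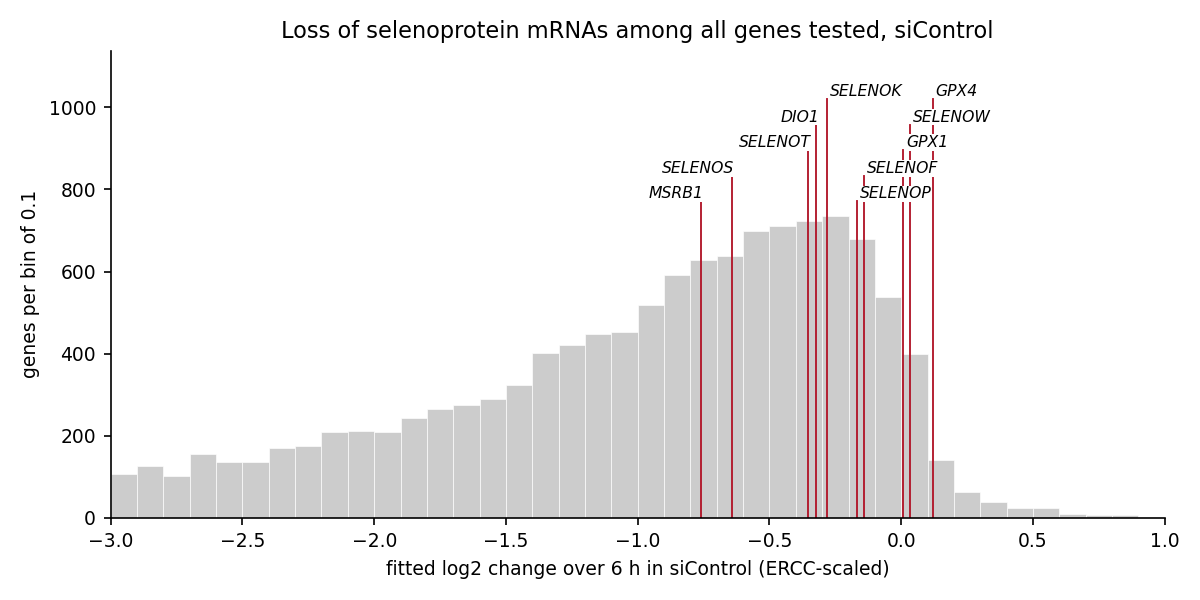
Fitted log2 change over 6 h in siControl on the ERCC scale (horizontal axis) for all genes tested (grey bars, genes per bin of 0.1; 1098 genes below -3 and 7 above 1 lie outside the axis), with the 10 selenoprotein mRNAs as red lines. All 10 lie right of the median of -0.88, from MSRB1 at -0.76 to GPX4 at 0.12.

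**Figure D4:**
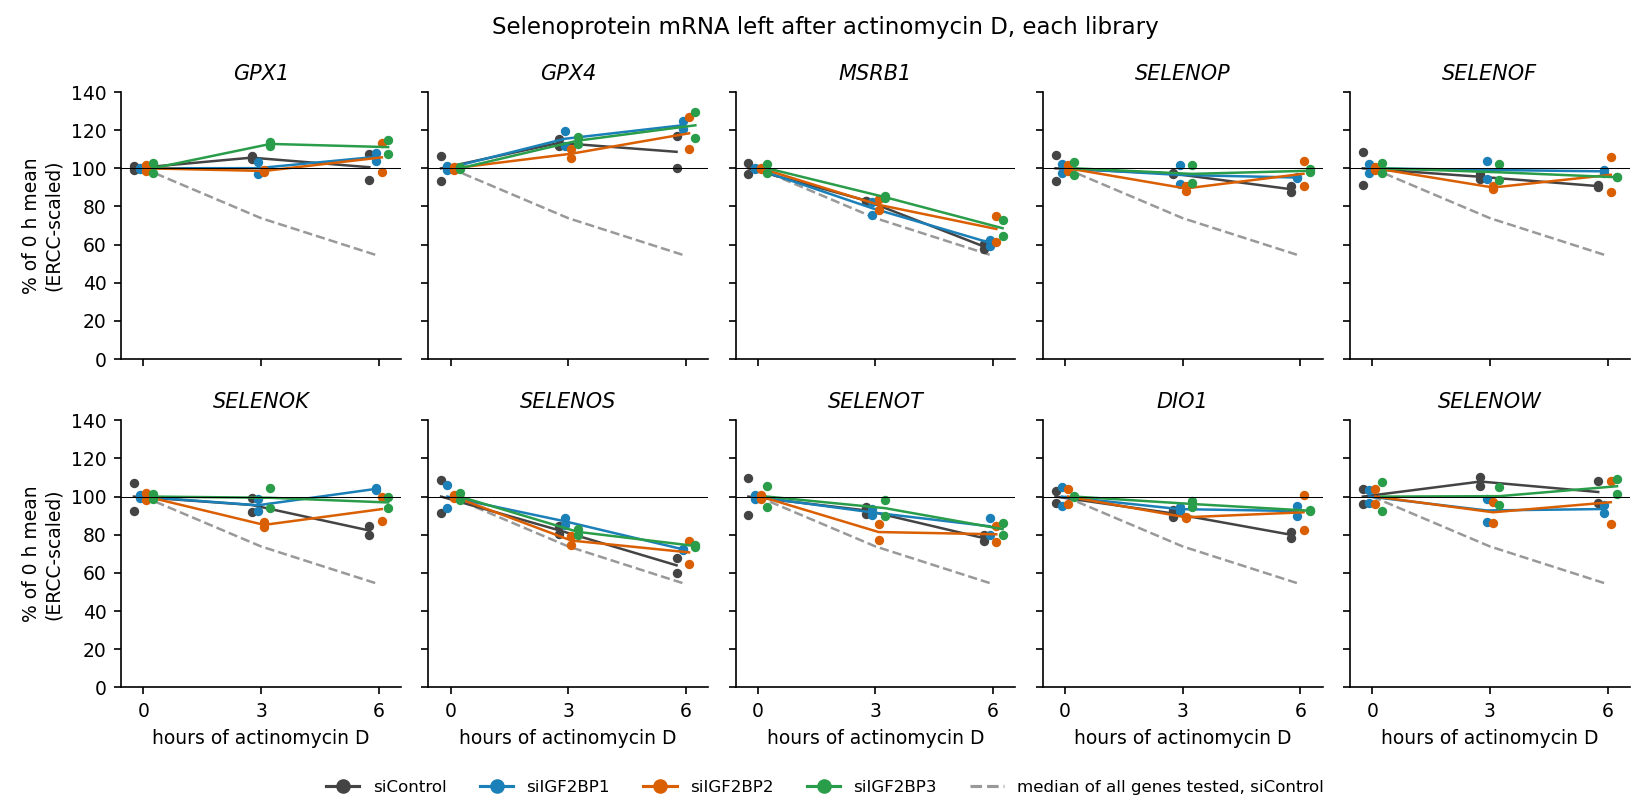
Percent of the 0 h mean left at 0, 3 and 6 h of actinomycin D on the ERCC scale for each selenoprotein mRNA, with a point for each library, lines through the means of 4 conditions, and the median of all genes tested in siControl as a dashed line (54.1% at 6 h). MSRB1 and SELENOS come nearest to the dashed line, and GPX4 lies above 100% in all 8 libraries at 6 h.

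MSRB1 had the lowest slope of the 10 in all 4 conditions. At 6 h 60.5% and 57.5% of its 0 h mean were left in siControl, 59.5% and 62.4% in siIGF2BP1, 61.3% and 75.1% in siIGF2BP2 and 72.7% and 64.5% in siIGF2BP3. The siControl libraries lay below both siIGF2BP2 and both siIGF2BP3 libraries and overlapped siIGF2BP1. The median of all genes tested at 6 h was also lowest in siControl, at 54.1%. The slope of MSRB1 in siControl was -0.76 ± 0.09 (adjusted p = 4.67e-08), and 55.6% of all genes tested had a lower one.

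SELENOS was next, with 68.0% and 59.9% left at 6 h in siControl, 72.7% and 72.1% in siIGF2BP1, 64.9% and 76.6% in siIGF2BP2 and 73.7% and 74.5% in siIGF2BP3. Its slope in siControl was -0.64 ± 0.09 (adjusted p = 2.05e-06). In the knockdowns it was -0.47, -0.50 and -0.43 (adjusted p = 0.000144, 5.39e-05 and 0.000317). MSRB1 and SELENOS fell in every condition and under every left-out library.

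SELENOT had 76.8% and 79.6% left at 6 h in siControl, 88.8% and 80.02% in siIGF2BP1, 76.0% and 84.5% in siIGF2BP2 and 86.0% and 79.9% in siIGF2BP3. Every library had lost some of the mRNA. The slopes were -0.35 ± 0.10, -0.24 ± 0.10, -0.32 ± 0.09 and -0.27 ± 0.10 (adjusted p = 0.00197, 0.0268, 0.00478 and 0.0177). Calls were lost without siControl 0 h replicate 1 (adjusted p = 0.0505), without siIGF2BP1 0 h replicate 1, 0 h replicate 2 or 6 h replicate 2 (highest adjusted p = 0.168), and without siIGF2BP3 0 h replicate 2 or 6 h replicate 2 (highest adjusted p = 0.122).

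DIO1 and SELENOK were called in siControl only. DIO1 had 81.5% and 78.4% left at 6 h in siControl (slope -0.32 ± 0.08, adjusted p = 0.00109) and 82.7% to 100.8% in the 6 knockdown libraries. SELENOK had 84.7% and 79.8% left in siControl (slope -0.28 ± 0.10, adjusted p = 0.0128) and 87.0% to 104% in the knockdowns, and its call was lost without siControl 0 h replicate 1 or 6 h replicate 2 (highest adjusted p = 0.114). In both genes the siControl libraries lay below all 6 knockdown libraries at 6 h. The median of all genes tested was also lower in siControl at 6 h, at 54.1% against 62.1%, 61.0% and 63.5% in siIGF2BP1, siIGF2BP2 and siIGF2BP3. The share of all genes with such an order of libraries was not computed. The difference between slopes, given further on, passed the test in neither gene. Without siIGF2BP2 6 h replicate 2, DIO1 (-0.28, adjusted p = 0.00179), SELENOK (-0.24, adjusted p = 0.0404) and SELENOF (-0.21, adjusted p = 0.0211) were called in siIGF2BP2 too, which brings its count from 3 to 6.

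SELENOP, SELENOF, SELENOW and GPX1 passed no test of loss in any condition. SELENOP had 90.5% and 87.5% left at 6 h in siControl (slope -0.17 ± 0.08, adjusted p = 0.0567), and 90.5% to 104% in the knockdowns. Without siControl 0 h replicate 2 its slope was -0.26 (adjusted p = 0.00750) and that of SELENOF -0.25 (adjusted p = 0.0164), which brings the siControl count from 5 to 7, and without replicate 1 the count was 3. SELENOF had 90.0% and 91.4% left in siControl, GPX1 107% and 93.8%, and SELENOW 108% and 96.9%.

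GPX4 rose in all 3 knockdowns on the ERCC scale. At 6 h it stood at 117% and 100.4% of its 0 h mean in siControl, 125% and 120.4% in siIGF2BP1, 110% and 127% in siIGF2BP2 and 129% and 116% in siIGF2BP3. The slope was 0.12 ± 0.08 in siControl (adjusted p = 0.194) and 0.29 ± 0.08, 0.24 ± 0.08 and 0.29 ± 0.08 in the knockdowns (adjusted p = 0.00338, 0.0116 and 0.00350). The call in siIGF2BP2 was lost without 6 h replicate 2 (adjusted p = 0.152), and GPX4 gained a call in siControl without 6 h replicate 2 (0.24, adjusted p = 0.0152). From 0 to 3 h alone, GPX4 rose by 0.18 in siControl too (edgeR, adjusted p = 0.0410). In siIGF2BP1, siIGF2BP2 and siIGF2BP3 that change was 0.21, 0.11 and 0.20 (adjusted p = 0.0193, 0.237 and 0.0282). No slope difference of GPX4 from siControl passed the test (adjusted p = 0.410 to 0.677). Values above 100% after transcription was stopped are set beside the ERCC-scaled sum of all gene reads, which stood at 65.9% and 70.7% of the 0 h mean at 6 h in siControl and at 70.6% to 81.3% in the 6 knockdown libraries.

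The change from 3 to 6 h was also set against that from 0 to 3 h with edgeR, in a contrast chosen after seeing the data, and none of the 10 passed. The lowest adjusted p was 0.136, for SELENOK in siIGF2BP2, while 12.6%, 11.5%, 18% and 12.1% of all genes tested were called in siControl, siIGF2BP1, siIGF2BP2 and siIGF2BP3 (2984, 2510, 3702 and 2589 genes at an unadjusted p under 0.05).

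On the TMM scale the same mRNAs gained ground. Their TMM slopes over 6 h ran from -0.04 for MSRB1 in siIGF2BP1 to 0.99 for GPX4 in siControl, with all-gene medians of -0.02, -0.01, -0.04 and -0.01 in siControl, siIGF2BP1, siIGF2BP2 and siIGF2BP3. In every condition 9 of the 10 rose and MSRB1 passed no test. Of all 13136 genes tested, 4773, 4736, 4560 and 4726 rose on this scale in siControl, siIGF2BP1, siIGF2BP2 and siIGF2BP3. The share of gene reads taken by the 10 mRNAs together went from 0.188% at 0 h to 0.228% at 3 h and 0.258% at 6 h in siControl, and from 0.167% to 0.2005% and 0.227% in siIGF2BP2 (means of 2 libraries).

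Half-lifetimes were computed as ln2 divided by a rate that is the mean of the rates from 0 to 3 h and from 0 to 6 h. They are given only where loss was called, since a slope near 0 gives none. In siControl they were 9.26 h for MSRB1, 9.97 h for SELENOS, 20.3 h for DIO1, 21.0 h for SELENOT and 29.1 h for SELENOK, against a median of 5.90 h over 11903 genes with a value. The spread is wide: over the 8 ways to take 1 library from each time point the siControl values ran from 8.23 to 10.6 h for MSRB1, 6.95 to 18.3 h for SELENOS, 14.8 to 32.5 h for DIO1 and 11.3 to 284 h for SELENOT, and SELENOK gave a value in 7 of 8.

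In siIGF2BP1, siIGF2BP2 and siIGF2BP3, MSRB1 had half-lifetimes of 8.62, 10.3 and 11.8 h and SELENOS of 13.8, 9.56 and 11.7 h. All lay within the ranges of 1-library combinations in siControl except that of MSRB1 in siIGF2BP3. The median over all genes with a value was 6.51, 6.21 and 6.61 h in these knockdowns, against 5.90 h in siControl. SELENOT had 24.3, 13.2 and 26.7 h, with ranges over 1-library combinations of 18.0 to 36.9, 10.1 to 18.8 and 13.9 to 391 h. Without 0 h replicate 2 its siIGF2BP3 value was 59.0 h and without 0 h replicate 1 it was 17.6 h, and in siControl it was 12.3 h without 0 h replicate 2 and 99.6 h without 0 h replicate 1. SELENOK in siControl moved to 16.7 and 144 h without those same siControl libraries. SELENOT had the longest value of these 3 genes in every condition, but its range overlapped that of SELENOS in siControl, siIGF2BP1 and siIGF2BP2, while MSRB1 was below SELENOS in siControl and siIGF2BP1 and above it in siIGF2BP2 and siIGF2BP3.

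None of the 10 mRNAs passed the test of a slope difference between a knockdown and siControl. The differences over 6 h ran from -0.13 to 0.34 in siIGF2BP1, -0.08 to 0.21 in siIGF2BP2 and 0.04 to 0.24 in siIGF2BP3, with 0 of 10 called in each. Over all genes tested the same edgeR test called 2, 0 and 3 genes, or 0.0152%, 0% and 0.0228%, while 1436, 896 and 2113 had an unadjusted p under 0.05. DESeq2 on the ERCC scale also called 0 of the 10 in each knockdown. The median difference of the 10 was 0.11, 0.12 and 0.16, and that of all genes tested was 0.19, 0.17 and 0.22.

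The largest difference was that of SELENOK in siIGF2BP1, 0.34 ± 0.14 (95% interval 0.06 to 0.61, unadjusted p = 0.0241, adjusted p = 0.432). It was the only one of the 30 with an unadjusted p under 0.05. On the TMM scale it was 0.14. For SELENOP the intervals were -0.12 to 0.31, -0.09 to 0.34 and -0.07 to 0.37 in the 3 knockdowns, and for SELENOT -0.16 to 0.37, -0.23 to 0.30 and -0.18 to 0.35. These intervals hold both slower and faster loss.

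The 10 genes were set in order by the position of the codon, as a description with no test. The 3 genes whose selenocysteine codon lies within 50 nt of the last exon junction or beyond it had slopes in siControl of -0.76 (MSRB1, 34 nt), -0.64 (SELENOS, in the last exon, at -80 nt) and -0.28 (SELENOK, 5 nt). The 7 with the codon farther upstream, from 78 nt in SELENOF to 470 nt in SELENOT, had slopes from -0.35 to 0.12 with a median of -0.14, so SELENOK lay within their range. A stop more than about 50 nt before the last junction is the textbook condition for nonsense-mediated decay. The 7 genes with the codon at such a distance had the higher median slope, -0.14 against -0.64 for the other 3. Selenium supply and decay factor activity were not measured, so their part in this order was not tested.

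**Figure D5:**
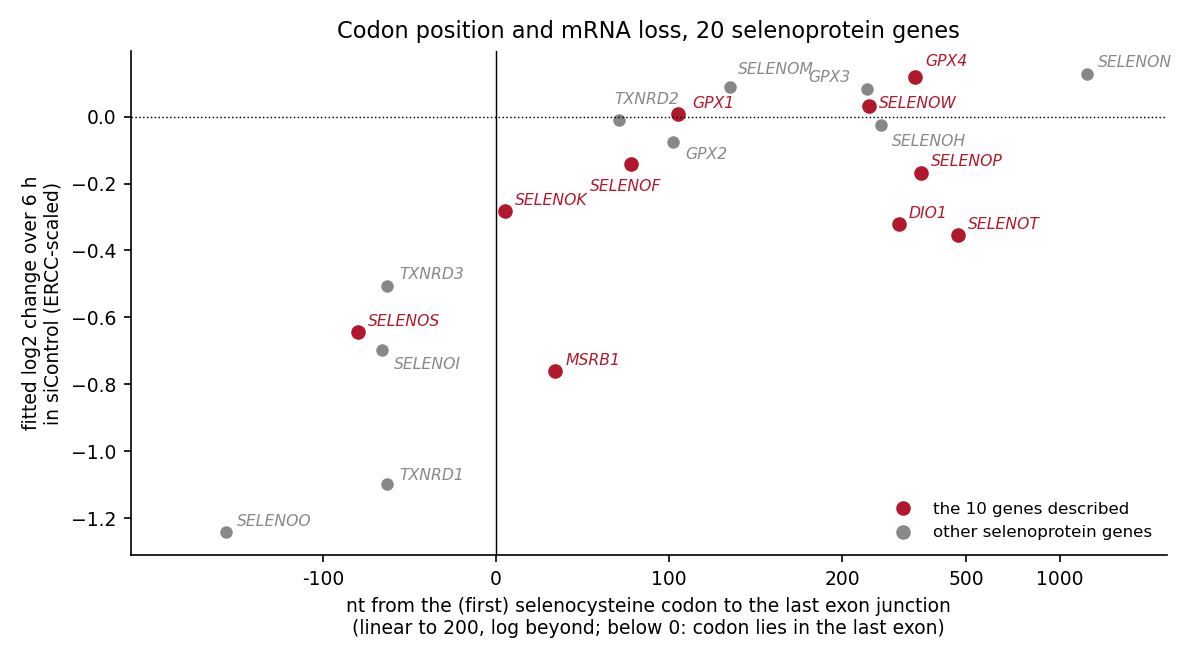
Distance in nt from the selenocysteine codon (the first, in SELENOP) to the last exon junction (horizontal axis, linear to 200 nt and logarithmic beyond, negative where the codon lies in the last exon) against the fitted log2 change over 6 h in siControl. Red points are the 10 genes described and grey points 10 other selenoprotein genes; the 7 genes at 50 nt or less lie at -0.28 or lower and the 13 others at -0.35 or higher.

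The other selenoprotein genes were placed by the same distance. Of 15 further genes, 11 passed the filter, and 10 of them have an exon junction. Over all 20 spliced genes the 7 with the codon at 50 nt or less had slopes of -1.24 to -0.28 (median -0.70) and the 13 others of -0.35 to 0.13 (median -0.01). SEPHS2, whose transcript is a single exon and which makes the selenium donor, had the lowest slope, -1.52. Pearson's r of distance and slope was 0.56 and Spearman's rho 0.67 over 20 genes, and 0.44 and 0.32 over the 10. The points share libraries and some share ancestry (GPX1, GPX2, GPX3 and GPX4, and TXNRD1 to TXNRD3). The length of the 3′ untranslated region had a rho of -0.34 over 21 genes and of -0.60 over the 10.

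GPX6 was listed at 0 reads in all 24 libraries, and DIO2, DIO3 and SELENOV were under 1 CPM in every library, with 8, 4 and 32 reads in all. At 0 h, 4 of the 11 other selenoproteins were called in siIGF2BP1 (3 higher, 1 lower), 2 in siIGF2BP2 (both lower) and none in siIGF2BP3, against 15.9%, 12.1% and 9.39% of all genes tested. SELENOM, a protein of the endoplasmic reticulum lumen, rose by 0.42 ± 0.13 in siIGF2BP1 (adjusted p = 0.0229), and TXNRD1, the cytosolic thioredoxin reductase, by 0.16 ± 0.04 (adjusted p = 0.00256). SELENOI, an enzyme of phospholipid synthesis, fell by 0.37 ± 0.04 in siIGF2BP2 (adjusted p = 1.07e-08) and SEPHS2 by 0.23 ± 0.04 (adjusted p = 2.58e-05). Over 3 time points 8, 6 and 3 of the 11 were called, against 39.7%, 33.8% and 32.3%, with SELENOI in siIGF2BP2 at -0.51 and SELENOO, a mitochondrial pseudokinase, in siIGF2BP1 at 0.26. Of the 11, 5 fell over 6 h in siControl, against 80.3% of all genes tested, among them SELENOO at -1.24, TXNRD1 at -1.10 and SELENOI at -0.70.

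Another list held 15 genes that insert selenocysteine, handle selenium or take up SELENOP, of which 14 passed the filter (LRP2 did not). SEPHS2 is in this list and among the other selenoproteins too. The 14 genes had a lower median slope than the 10 selenoprotein mRNAs. In siControl 13 of 14 fell, against 80.3% of all genes tested, with a median slope of -0.81, near the -0.88 of all genes. SECISBP2L, a relative of the SECIS-binding protein, had the lowest slope at -2.48 ± 0.14, SEPSECS, which completes selenocysteine on its transfer RNA, had -1.79 ± 0.19 in siControl, PSTK, the kinase that precedes it, -2.03 ± 0.20 in siIGF2BP3, and SCLY, which frees selenium from selenocysteine, -1.92 ± 0.22 in siIGF2BP2. At 0 h 0, 4 and 3 of the 14 were called in siIGF2BP1, siIGF2BP2 and siIGF2BP3, against 15.9%, 12.1% and 9.39% of all genes tested. In siIGF2BP2 SEPHS1 rose by 0.22 ± 0.04 (adjusted p = 0.000148) and LRP8, a receptor that takes up SELENOP, fell by 0.22 ± 0.05 (adjusted p = 0.00300). NCL, which binds some SECIS elements, rose by 0.09 ± 0.03 in siIGF2BP3 (adjusted p = 0.0322). Over 3 time points 5, 5 and 6 were called, against 39.7%, 33.8% and 32.3%, with TRNAU1AP at -0.17 ± 0.06 in siIGF2BP3 (adjusted p = 0.0216) and LRP8 at -0.26 ± 0.03 in siIGF2BP2.

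Relatives that carry cysteine, or bind selenium without selenocysteine, were 9 genes, of which 7 passed the filter. GPX5 was listed at 0 in every library and GPX8 was under 1 CPM. None of the 7 fell in siControl, against 80.3% of all genes tested, and their median slope was -0.01, with all 7 above the median of all genes. At 0 h 1, 1 and 0 were called, against 15.9%, 12.1% and 9.39%, namely SELENBP1 in siIGF2BP1 (0.25 ± 0.08, adjusted p = 0.0325) and MSRB3, a methionine sulfoxide reductase, in siIGF2BP2 (0.38 ± 0.12, adjusted p = 0.0351). Over 3 time points 2, 2 and 1 were called, against 39.7%, 33.8% and 32.3%, with MSRB2 at -0.37 ± 0.12 in siIGF2BP3 (adjusted p = 0.0155) and TXN, thioredoxin, at 0.10 ± 0.03 in siIGF2BP2 (adjusted p = 0.00606).

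Of 11 partners of the endoplasmic reticulum selenoproteins 10 passed the filter, DERL3 being at 0 in every library. At 0 h 2 were called in each knockdown, against 15.9%, 12.1% and 9.39% of all genes tested. DERL2, which binds SELENOK and SELENOS in the degradation complex, fell by 0.30 ± 0.07 in siIGF2BP2 (adjusted p = 0.00109), UGGT1, the partner of SELENOF, by 0.14 ± 0.03 in siIGF2BP2 (adjusted p = 0.00208), and SEL1L by 0.20 ± 0.04 in siIGF2BP1 (adjusted p = 0.000340), where VCP rose by 0.14 ± 0.03 (adjusted p = 0.000322). Over 3 time points 5, 3 and 3 were called, against 39.7%, 33.8% and 32.3%, UBXN8 among them in siIGF2BP1 (0.19 ± 0.05, adjusted p = 0.00324). In siControl 9 of 10 fell over 6 h, against 80.3%, with a median slope of -0.59, led by the ubiquitin ligase SYVN1 at -1.47, DERL2 at -1.04 and ZDHHC6 at -0.95, while DERL1 reached -0.76 in siIGF2BP3.

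All 17 nonsense-mediated decay factors passed the filter and all fell in siControl, against 80.3% of all genes tested, with a median slope of -0.91. SMG8 had a slope of -5.13 ± 0.42, SMG9 of -1.33 ± 0.16, NBAS of -1.19 ± 0.09 and DHX34 of -1.17 ± 0.10. At 0 h 1, 0 and 2 were called, against 15.9%, 12.1% and 9.39%, all higher and all small: SMG1 by 0.09 ± 0.03 in siIGF2BP1, and CASC3 by 0.13 ± 0.04 and UPF3A by 0.11 ± 0.04 in siIGF2BP3 (adjusted p = 0.0464, 0.0255 and 0.0488). Over 3 time points 9, 5 and 6 were called, against 39.7%, 33.8% and 32.3%, with MAGOHB at 0.34 ± 0.04 and DHX34 at 0.18 ± 0.04 in siIGF2BP1. No gene of any of these 5 lists was called for a slope difference.

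Across the 12 group means on the ERCC scale, the gene with the profile most like each mRNA was found among 13135 others by Pearson's r, as a description in which all points share libraries and the common decline with time. For SELENOP it was KIAA1191 (r = 0.98), for SELENOT PLEKHA1 (0.97), for SELENOK IQCG (0.89), for SELENOS HIPK3 (0.99), for SELENOF MECR (0.96) and for SELENOW MSRB3 (0.96). For GPX1 it was SERPIND1 (0.94), for GPX4 GAPDH (0.98), for DIO1 MAT1A (0.97) and for MSRB1 KIF21A (0.99). Within the group SELENOS and MSRB1 were closest to each other (0.89), as were GPX1 and GPX4 (0.79) and SELENOP and SELENOT (0.77).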

How the data were processed

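Polyadenylated RNA of HepG2 cells was sequenced as 100 bp single-end reads from a SMARTer Stranded library kit. The authors trimmed reads with Trimmomatic 0.39, aligned them to hg38 with HISAT2 2.1.0 (versions from the submitters' processing notes) and deposited raw counts per GENCODE release 29 gene and per ERCC transcript, made with HTSeq. Its strand and overlap settings are not given in the sources used here. The summary rows that name no gene held 13.6% to 17.1% of reads and were left out. Libraries of METTL1 knockdown were not analysed here.

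The 10 genes and the other lists were chosen with earlier results of these data known. Genes with at least 1 CPM in at least 2 libraries were tested with edgeR 4.0.16 in R 4.3.3 (quasi-likelihood test, Benjamini-Hochberg adjustment over 13136 genes, threshold 0.05). Levels at 0 h and over 3 time points came from 12 group means with TMM scaling (12 residual degrees of freedom), and loss and slope differences from a line over 0, 3 and 6 h in each condition, scaled by summed ERCC reads (16 residual degrees of freedom). Half-lifetimes and percentages used ERCC-scaled means. The step was tested on simulated data. Among the other lists, the genes named were, per list and kind of comparison, up to 4 with the largest absolute called change and any under 1 CPM in every library, and for each of the 10 the gene with the most similar profile. The contrasts between knockdowns and limma 3.58.1 on means over times were added after seeing the data. Alternatives were other scalings and filters, DESeq2 1.42.0, a replicate block, fewer libraries, other decay estimates and leaving out each library.

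Codon positions came from GENCODE release 44 on hg38 in place of a protein table. ERCC counts give a counting error of 0.29% to 0.443% per library. The study calls replicates independent without naming separate cultures, and the times of a condition came from split plates, so p-values measure the spread between these samples, which may be technical. Python 3.11.15, numpy 2.4.6, pandas 2.3.3, scipy 1.17.1 and matplotlib 3.10.9 were used for tables and figures.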

Additional observations from a re-analysis of the deposited data

Results flagged for a closer look

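The effects of the 3 knockdowns at 0 h were set against each other, pair by pair, with a test of the difference itself (edgeR, TMM scale, adjusted over 13136 genes). These contrasts were chosen after seeing the data. The siControl libraries cancel out of these differences. DIO1 differed in all 3 pairs, by 0.53 ± 0.06 on the log2 scale between siIGF2BP1 and siIGF2BP2 (adjusted p = 9.11e-09), 0.22 ± 0.06 between siIGF2BP1 and siIGF2BP3 (adjusted p = 0.00841) and -0.31 ± 0.06 between siIGF2BP2 and siIGF2BP3 (adjusted p = 0.000360). Both libraries of the higher group lay above both of the lower group in each pair.

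SELENOP was higher in siIGF2BP1 than in siIGF2BP2 by 0.37 ± 0.03 (adjusted p = 2.74e-11) and differed by -0.32 ± 0.03 between siIGF2BP2 and siIGF2BP3 (adjusted p = 1.58e-09). SELENOT was higher in siIGF2BP1 by 0.36 ± 0.06 than in siIGF2BP2 (adjusted p = 1.46e-05) and by 0.23 ± 0.06 than in siIGF2BP3 (adjusted p = 0.00535). SELENOS was higher in siIGF2BP1 than in siIGF2BP2 by 0.16 ± 0.05 (adjusted p = 0.0273).

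GPX1 was lower in siIGF2BP3 than in the other knockdowns, by 0.22 ± 0.05 against siIGF2BP1 (adjusted p = 0.000670) and 0.14 ± 0.05 against siIGF2BP2 (adjusted p = 0.0446), and MSRB1 was higher in siIGF2BP1 than in siIGF2BP3 by 0.20 ± 0.05 (adjusted p = 0.00525). These pairs called 18.7% (siIGF2BP1 and siIGF2BP2), 14.3% (siIGF2BP1 and siIGF2BP3) and 9.19% (siIGF2BP2 and siIGF2BP3) of all genes tested.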

How the results depend on the processing

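Among values for single genes of the 10 (level, loss and slope difference), 48 passed the test and 82 did not. DESeq2 and the replicate block lost none of the 48. Whether the replicate numbers pair the samples was not settled. The differences between replicates 1 and 2 correlated between groups at a median of 0.0096 over 66 pairs of groups, with 7 above 0.1 (highest 0.288). Between different times of 1 condition, which share transfected plates, the median was 0.032 over 12 pairs, with 3 above 0.1 (highest 0.241). Low correlations cannot exclude pairing, since an effect of a shared plate may be small beside the spread between libraries. The replicate block gave 4, 7 and 3 calls at 0 h and 5, 7 and 7 over 3 time points in siIGF2BP1, siIGF2BP2 and siIGF2BP3. With 2 libraries a group, small changes are limited by replicate spread more than by read depth. The cause of the changes below was not tested, other than by the scale itself.

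At 0 h the count of calls in siIGF2BP1 went from 4 to 1 with library size, 2 with no filter and 1 with summed ERCC reads, and with ERCC reads from 6 to 3 in siIGF2BP2, from 3 to 0 in siIGF2BP3 and, over 3 time points, from 5 to 2 in siIGF2BP1. The calls over all genes at 0 h were also fewer with ERCC reads than with TMM in each knockdown. The count of genes lost over 6 h went to 0 in each of the 4 conditions with TMM and to 1 with library size. Over all genes the siControl slopes then split into 4773 rising and 5085 falling with TMM, and 2761 and 6871 with library size, against 33 and 10551 with ERCC reads. Half-lifetimes from a regression, which equals the 0 to 6 h value, were 18.9 h for SELENOT and 12.01 h for SELENOS in siIGF2BP2, 13.9 h for SELENOS in siIGF2BP3 and 7.89 h for MSRB1 in siControl.

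With canonical transcript length the siControl levels were 685 RPKM for GPX4, 427 for SELENOP, 101 for GPX1, 54.8 for SELENOF, 44.2 for SELENOS, 41.3 for MSRB1, 22.7 for DIO1, 22.3 for SELENOK, 16.8 for SELENOW and 15.1 for SELENOT.

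Over all genes the calls over 3 time points split into 3073 higher and 1011 lower in siIGF2BP1, 5800 and 507 in siIGF2BP2 and 6946 and 257 in siIGF2BP3 with ERCC reads, against 2790 and 2428, 2252 and 2188, and 2131 and 2108 with TMM. On the ERCC scale the change over 3 time points turned to 0.13 for SELENOF and 0.13 for GPX1 in siIGF2BP2, and in siIGF2BP3 to 0.027 for SELENOP, 0.18 for SELENOW, 0.012 for SELENOS, 0.12 for SELENOF, 0.075 for GPX1, 0.13 for MSRB1 and 0.0081 for TRNAU1AP.

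The slope over 6 h turned from loss to gain with TMM, and in most cases with library size (second value). In siControl it was 0.70 and 0.38 for SELENOP, 0.52 and 0.20 for SELENOT, 0.59 and 0.27 for SELENOK, 0.73 and 0.41 for SELENOF, 0.54 and 0.22 for DIO1, and with TMM alone 0.23 for SELENOS and 0.11 for MSRB1. In siIGF2BP1 it was 0.60 and 0.30 for SELENOP, 0.58 and 0.28 for SELENOW, 0.43 and 0.13 for SELENOT, 0.65 and 0.35 for SELENOF, 0.56 and 0.26 for DIO1, and 0.21 with TMM for SELENOS. In siIGF2BP2 it was 0.63 and 0.36 for SELENOP, 0.62 and 0.35 for SELENOW, 0.36 and 0.080 for SELENOT, 0.57 and 0.30 for SELENOK, 0.62 and 0.34 for SELENOF, 0.55 and 0.27 for DIO1, and with TMM 0.17 for SELENOS and 0.12 for MSRB1. In siIGF2BP3 it was 0.63 and 0.34 for SELENOP, 0.38 and 0.085 for SELENOT, 0.60 and 0.31 for SELENOK, 0.58 and 0.28 for SELENOF, 0.53 and 0.24 for DIO1, and with TMM 0.21 for SELENOS and 0.10 for MSRB1.

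Leaving out 1 library at a time gave 1 to 3, 2 to 5 and 0 to 1 calls at 0 h in siIGF2BP1, siIGF2BP2 and siIGF2BP3, 4 to 7, 6 to 7 and 5 to 7 over 3 time points, 0 to 0 slope differences, and 3 to 7, 2 to 3, 3 to 6 and 2 to 3 genes lost in siControl, siIGF2BP1, siIGF2BP2 and siIGF2BP3. The lowest counts at 0 h came without siControl replicate 1 or either siIGF2BP1 replicate (1 each), without siIGF2BP2 replicate 1 (2) and without siIGF2BP3 replicate 1 (0). Half-lifetimes then ran from 16.6 to 26.6 h for DIO1 and 16.7 to 144 h for SELENOK in siControl. For siControl, siIGF2BP1, siIGF2BP2 and siIGF2BP3 they ran from 8.45 to 10.3, 7.91 to 9.42, 9.10 to 11.7 and 10.7 to 13.2 h for MSRB1, from 7.69 to 14.7, 10.8 to 19.9, 8.70 to 10.5 and 10.9 to 12.8 h for SELENOS, and from 12.3 to 99.6, 21.0 to 28.5, 11.2 to 15.8 and 17.6 to 59.0 h for SELENOT. The targeted genes stayed between -2.26 and -2.22, -1.962 and -1.90, and -1.51 and -1.47 (log2) in siIGF2BP1, siIGF2BP2 and siIGF2BP3.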
